A study of Mus musculus with 4 samples.

Results

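The elements described here are the ETn, MusD and ERVB7 retrotransposons of the mouse, measured by RNA-seq in embryonic stem cells (ESCs). They were all rows of the table of transposable element (TE) counts whose repeat name begins with ETnERV, MMETn, RLTRETN or ERVB7. The rule used names only and no measured value. It took 7996 of the 3658072 TE copies, which carry 10 of the 1072 repeat names. WT ESCs (line N12, wild-type genotype, 2 libraries) were compared with Terc-/- ESCs (line F35, 2 libraries), which lack the RNA component of telomerase. The titles put G3, for generation 3, before both lines. The labels place both in strain C57BL/6 and on feeder cells, with poly(A)-enriched RNA, and the study's methods derive the G3 Terc-/- ESCs from blastocysts of intercrossed G2 Terc-/- mice. Each genotype was 1 line, so that genotype and line cannot be told apart, and the 2 libraries of a line, called biological replicates in the study's methods, give p-values that measure the spread within a line only.

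ETn elements are long terminal repeat (LTR) retrotransposons that carry no complete genes of their own. MusD elements are their coding relatives, which keep gag, pro and pol but lack an envelope gene and can supply the proteins that ETn needs to move. Both are transcribed in early embryos and in pluripotent cells from promoters in their LTRs, and new insertions have caused many mouse mutations. In ESCs most copies are kept silent by KRAB zinc finger proteins, which bring TRIM28 and the H3K9 methyltransferase SETDB1 to the element, while DNA methylation takes over in later cells.

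The 10 names fall into internal parts and LTRs. The internal parts are MMETn-int, with 980 copies, ETnERV-int, the name usually given to MusD, with 906, ETnERV2-int with 1805 and ETnERV3-int with 560. RLTRETN_Mm, with 1355 copies, is an LTR of ETn and MusD. Which LTR name belongs to which internal part was not tested. The ERVB7 LTRs are ERVB7_1-LTR_MM (770 copies), ERVB7_2-LTR_MM (425), ERVB7_2B-LTR_MM (710), ERVB7_3-LTR_MM (319) and ERVB7_4-LTR_MM (166). The table gives no position or length for a copy, so no sequence is shown and levels are not compared between names per length. A copy is called here by its running number in the table, such as MMETn-int copy 397. The study describes reads that mapped to 1 place for its own analysis of single copies, but how reads with several places were treated in these counts is not given in the sources used here.

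The TE counts of a library summed to between 1805047 and 2104586, and the gene counts to between 18047995 and 22520017. Terc, the deleted gene, had 7 and 2 counts in WT, whereas both G3 Terc-/- libraries had 0, which allows up to 3 counts each. The 2 counts lie within what a 0 allows, and Terc had too few counts to be tested. Of 10 pluripotency genes, 8 were higher and 2 lower in G3 Terc-/- ESCs by edgeR's quasi-likelihood test with an adjusted p under 0.05, against 21.7% of all 14896 genes tested higher and 21.8% lower, and all 10 were detected in every library. Of 14 fibroblast genes tested as a sign of feeder cells, 8 were higher and 0 lower by the same rule, and none was lower at an unadjusted P under 0.05 either. Their list of 15 genes summed to 1680 and 1457 CPM in WT against 2296 and 1980 CPM in G3 Terc-/- ESCs. CPM here are gene counts scaled to a common library size. Fn1 alone held 1144 and 1010 CPM of these sums in WT against 1693 and 1493 CPM in G3 Terc-/- ESCs. The part of this list in the results below was not tested. In bulk samples, fewer cells of a type and less RNA per cell cannot be told apart.

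ETn, MusD and ERVB7 elements together took a smaller part of the TE counts in G3 Terc-/- ESCs. Their share of the TE counts was 2.41% and 2.49% in WT against 1.20% and 1.24% in G3 Terc-/- ESCs. The genotypes did not overlap, and the means of 2.45% ± 0.0533 (SD, n = 2) and 1.22% ± 0.0329 (SD, n = 2) differed by -1.23 percentage points. With 2 libraries against 2, a two-sided exact permutation test cannot give a p under 0.333. Per gene count, the members' counts came to 0.225% and 0.232% in WT against 0.113% and 0.124% in G3 Terc-/- ESCs.

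At the level of repeat names, 3 of the 10 were lower in G3 Terc-/- ESCs at the study's cutoffs for TE classes, a fold change over 1.5 and an unadjusted P under 0.05 (edgeR's quasi-likelihood test). Over all 917 names tested, 2.94% were lower by the same rule. No member passed in the higher direction, where 5.13% of all names did. At an unadjusted P under 0.05 and any size, 3 members were higher. The share of all names by that rule was not computed, so this count sets no member apart. DESeq2 also called 0 higher at the cutoffs. The median log2 fold change was -0.07 over the 10 members and -0.0046 over all 917 names. Scaling by the gene counts in place of the TE counts shifted the median of all names by 0.06.

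With all copies, ETnERV-int had the largest fall among the members, and without the copy with most counts of each name it came after ERVB7_1-LTR_MM (-1.77 against -2.02). It held 10050 and 10508 counts in WT against 2105 and 1882 in G3 Terc-/- ESCs. After TMM normalization the level fell from 5025 CPM ± 73.5 (SD, n = 2) to 1013 CPM ± 22.4 (SD, n = 2), so that WT stood 4.96-fold higher. The log2 fold change was -2.31 (SE 0.03, adjusted p = 1.75e-11 from edgeR), the second lowest of the 917 names. MERVL-int, an ERV of the 2-cell embryo given for comparison, had a log2 fold change of 2.39, IAPEz-int 0.18 and MMERGLN-int -1.79.

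MMETn-int, the ETn internal part with the most counts, fell by less. It held 31757 and 33571 counts in WT against 16794 and 15687 in G3 Terc-/- ESCs. Its level went from 15967 CPM ± 358 (SD, n = 2) to 8265 CPM ± 439 (SD, n = 2), a log2 fold change of -0.95 (SE 0.03, adjusted p = 1.39e-08 from edgeR). MMETn-int made up 64.0% and 64.2% of the members' counts in WT against 68.0% and 70.0% in G3 Terc-/- ESCs, whereas ETnERV-int went from 20.3% and 20.1% to 8.53% and 8.40%. These shares are of counts, which also grow with the length of an element.

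The other internal parts held somewhat more counts in G3 Terc-/- ESCs. ETnERV2-int held 560 and 554 counts in WT against 722 and 670 in G3 Terc-/- ESCs, with a log2 fold change of 0.38 (SE 0.07, adjusted p = 0.00475 from edgeR). ETnERV3-int held 161 and 174 counts in WT against 216 and 203 in G3 Terc-/- ESCs, also with a log2 fold change of 0.38 (SE 0.11, adjusted p = 0.0362 from edgeR). In both names the genotypes did not overlap in CPM, and both stayed under the fold cutoff of 1.5 at 1.30. The share of all names without overlap was not computed, so the lack of overlap sets neither apart.

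Among the LTRs, ERVB7_1-LTR_MM fell nearly as far as ETnERV-int. It held 3114 and 3351 counts in WT against 742 and 645 in G3 Terc-/- ESCs, and its level went from 1580 CPM ± 55.3 (SD, n = 2) to 352 CPM ± 0.801 (SD, n = 2). The log2 fold change of -2.17 (SE 0.05, adjusted p = 2.59e-10 from edgeR) was the third lowest of all names. RLTRETN_Mm, an LTR of ETn and MusD, held 2819 and 2899 counts in WT against 2794 and 2321 in G3 Terc-/- ESCs. Here the log2 fold change came to -0.11 (SE 0.04, adjusted p = 0.0749 from edgeR).

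The remaining ERVB7 LTRs had few counts and did not pass both cutoffs. ERVB7_4-LTR_MM held 138 and 148 counts in WT against 202 and 155 in G3 Terc-/- ESCs, with a log2 fold change of 0.37 (SE 0.12, adjusted p = 0.0536 from edgeR). ERVB7_3-LTR_MM held 87 and 78 counts in WT against 62 and 52 in G3 Terc-/- ESCs, with a log2 fold change of -0.48 (SE 0.18, adjusted p = 0.0791 from edgeR). The libraries of the genotypes overlapped in ERVB7_2-LTR_MM, with 566 and 659 counts against 613 and 535, and in ERVB7_2B-LTR_MM, with 361 and 358 counts against 434 and 261.

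**Figure D1:**
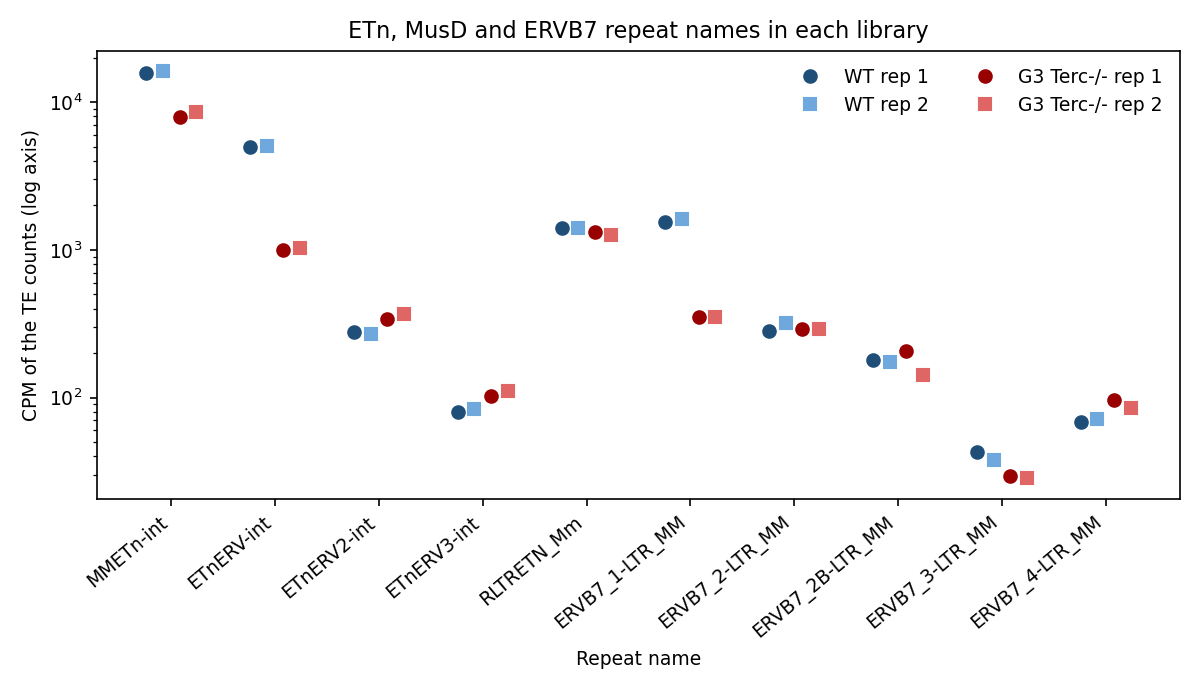
Level of each of the 10 repeat names in each library, in CPM of the TE counts after TMM normalization on a log axis, with blue for the 2 WT libraries and red for the 2 G3 Terc-/- libraries. ETnERV-int lies near 5025 CPM in WT and 1013 CPM in G3 Terc-/- ESCs and ERVB7_1-LTR_MM near 1580 and 352 CPM, while the libraries of the genotypes overlap in ERVB7_2-LTR_MM and ERVB7_2B-LTR_MM.

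Whether the names changed by different amounts was tested directly against MMETn-int, with limma on the log2 CPM of each name minus that of MMETn-int in the same library. All 9 other members differed from it with an adjusted p under 0.05. For these fits limma pooled the spread between libraries over all names, and every difference shares the value of MMETn-int. The p-values may therefore be too small and the intervals too narrow. ETnERV-int fell further than MMETn-int by -1.36 on the log2 scale (95% interval -1.51 to -1.20, adjusted p = 1.55e-60 from limma), and ERVB7_1-LTR_MM by -1.21 (-1.39 to -1.04, adjusted p = 1.98e-38 from limma). These are 2 of the 0.873% of names that lay below MMETn-int. The other 7 members lay above it, as did 94.0% of all names tested. Their differences ran from 0.49 for ERVB7_3-LTR_MM (interval 0.06 to 0.91, adjusted p = 0.0256 from limma) to 1.33 for ETnERV2-int (interval 1.12 to 1.54, adjusted p = 1.76e-33 from limma). RLTRETN_Mm differed by 0.84 (interval 0.68 to 1.00). Without the copy with most counts of each name, the difference of ETnERV-int came to -0.82 and that of RLTRETN_Mm to 0.45, both still with an adjusted p under 0.05. The difference of ERVB7_3-LTR_MM lost its call without G3 Terc-/- replicate 1 (0.41) or WT replicate 2 (0.37), and without its copy with most counts (0.37).

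**Figure D2:**
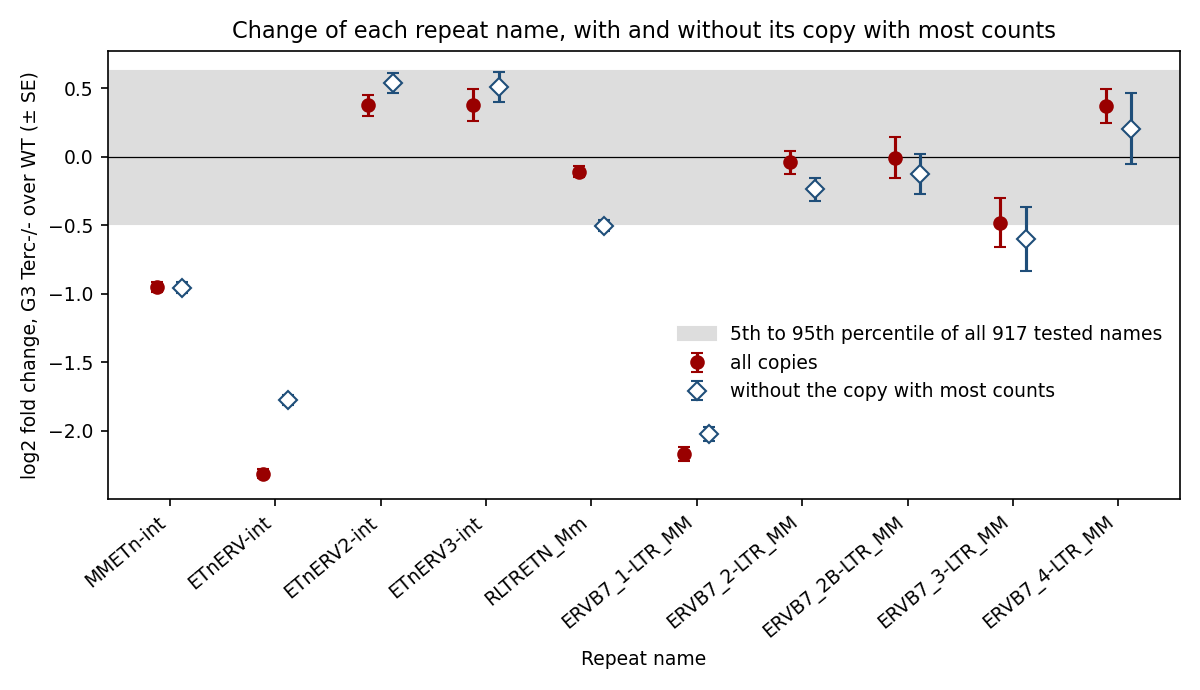
The log2 fold change of each repeat name in G3 Terc-/- over WT ESCs, with all copies (filled circles) and without the copy with most counts (open diamonds), and bars of 1 SE. The grey band spans the 5th to the 95th percentile of the 917 tested names, from -0.49 to 0.63. MMETn-int, ETnERV-int and ERVB7_1-LTR_MM lie below the band with and without that copy.

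Single copies carried large parts of these sums, so each name was also summed without its copy with most counts. ETnERV-int then had a log2 fold change of -1.77 (adjusted p = 1.83e-08 from edgeR), ERVB7_1-LTR_MM one of -2.02 (adjusted p = 6.06e-08 from edgeR) and MMETn-int one of -0.95 (adjusted p = 1.33e-06 from edgeR). All 3 stayed past the cutoffs. RLTRETN_Mm moved most among the other names, from -0.11 to -0.50 (SE 0.04, adjusted p = 7.90e-05 from edgeR), since the copy left out went the other way. ETnERV2-int reached 0.54 and ETnERV3-int 0.51, and ERVB7_3-LTR_MM passed the cutoffs at -0.60 (unadjusted P of 0.0338, adjusted p of 0.119 from edgeR). For comparison, MMERGLN-int went from -1.79 to -0.05.

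Of the 7996 copies, 6139 had no count in any library, 1087 had 1 to 4 counts over the 4 libraries, and 770 had at least 5 and were tested. The tested copies held 98.7% of the members' counts. Among them, 37 were at 0 in both WT libraries and 23 at 0 in both G3 Terc-/- libraries, and such copies entered the test through 1 genotype only. MMETn-int had the largest tested share, 276 of its 980 copies or 28.2%, and ERVB7_2B-LTR_MM the smallest, 20 of 710 or 2.82%.

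Copies moved in both directions. At a fold change over 2 and an unadjusted P under 0.05, 92 of the 770 tested copies (11.9%) were higher in G3 Terc-/- ESCs and 120 (15.6%) were lower (edgeR's quasi-likelihood test). Of all 176114 copies tested, 4.79% were higher and 4.01% lower by the same rule. With an adjusted p under 0.05 in place of P, 39 members were higher and 70 lower, against 0.772% and 0.442% of all copies. The 770 include the copies at 0 in both libraries of 1 genotype, whose direction the minimum of 5 counts fixed in advance. They were not taken out of these counts or shares. The count of 92 fell to 42 without G3 Terc-/- replicate 1 and to 35 without G3 Terc-/- replicate 2.

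Among the 132 members with at least 100 counts over the 4 libraries, 16 (12.1%) were higher and 47 (35.6%) lower at a fold change over 2 and an adjusted p under 0.05 (edgeR). Among all 10643 copies with as many counts, 3.81% were higher and 3.69% lower. The lower copies comprised 18 of 65 copies of MMETn-int, 16 of 23 of ETnERV-int, 8 of 12 of ERVB7_1-LTR_MM, 4 of 16 of RLTRETN_Mm and 1 of 3 of ERVB7_2B-LTR_MM. The higher copies comprised 9 of MMETn-int, 3 of the 5 of ETnERV2-int, 2 of ETnERV-int and 1 each of RLTRETN_Mm and ERVB7_1-LTR_MM. Without either G3 Terc-/- library, 1 library was left in that group, the smallest adjusted p of these 63 copies was 0.576 (without replicate 1) or 0.649 (without replicate 2), and none kept its call. All 63 kept their direction under every alternative run, and at least 61 stayed past a fold change of 2. The 63 were chosen by their change in the same libraries, which every run reuses, so this is no independent check.

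**Figure D3:**
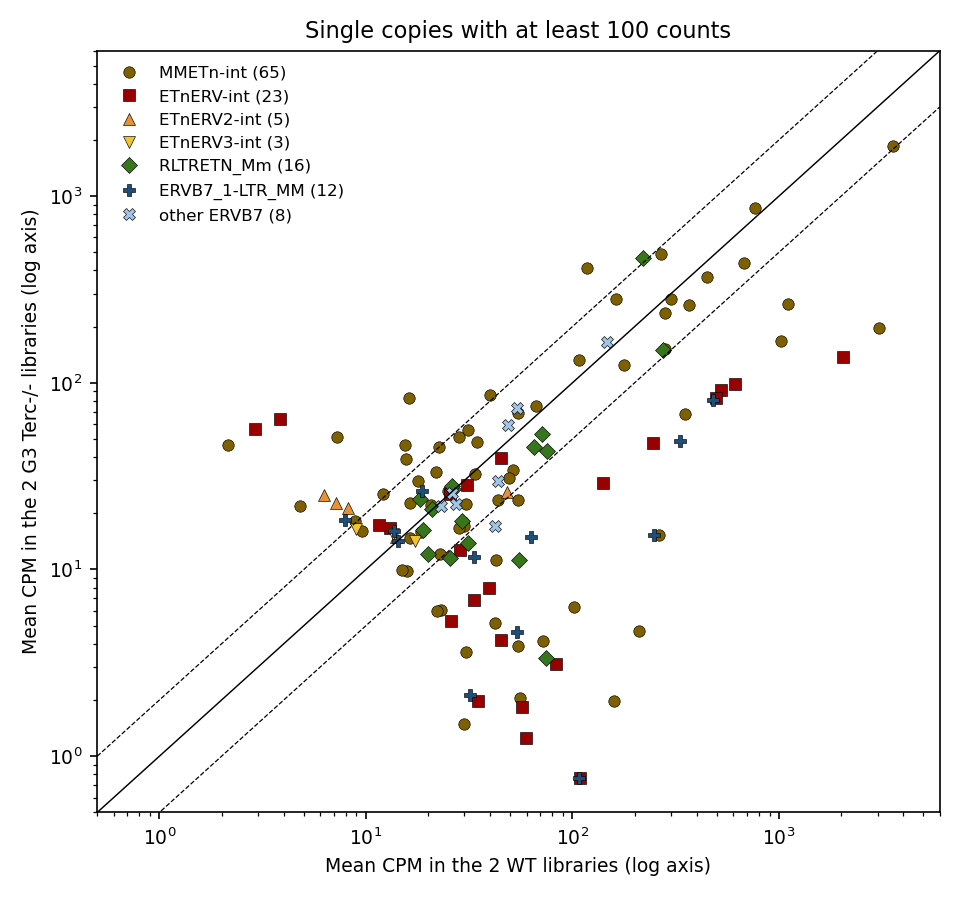
Mean CPM of the TE counts in the 2 G3 Terc-/- libraries against the mean in the 2 WT libraries, both on log axes, for the 132 copies with at least 100 counts, marked by repeat name. The solid line marks equal levels and the dashed lines a fold change of 2, and 47 copies were called lower and 16 higher.

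Of the copies of MMETn-int, copy 397 held most counts. It had 7386 and 7453 counts in WT against 3709 and 3443 in G3 Terc-/- ESCs, a log2 fold change of -0.95 (SE 0.07). Copy 185 came second, with 6153 and 6583 counts in WT against 408 and 355 in G3 Terc-/- ESCs, and WT stood 15.6-fold higher (log2 fold change -3.96, SE 0.09). In both, every G3 Terc-/- library lay below every WT library, but the share of all copies with this order was not computed.

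The next copies of MMETn-int differed among themselves. Copy 259 held 1479 and 1711 counts in WT against 1599 and 1717 in G3 Terc-/- ESCs, with a log2 fold change of 0.16 (SE 0.08, adjusted p = 0.469 from edgeR). Copy 889 held 2204 and 2371 counts against 509 and 510, and copy 865 held 1999 and 2257 against 339 and 310. Copy 894 fell by 0.64 on the log2 scale, from 1345 and 1483 counts to 866 and 825. So of the 6 copies with most counts, 3 fell by more than 2 on the log2 scale, 2 by 0.64 and 0.95, and copy 259 did not pass the test.

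Some MMETn-int copies went the other way, and those named in this paragraph were picked after their values were seen. Copy 260 held 255 and 231 counts in WT against 843 and 753 in G3 Terc-/- ESCs, and was 3.52-fold higher (log2 fold change 1.82, SE 0.11, adjusted p = 1.13e-58 from edgeR). Copy 883 held 42 and 25 counts against 153 and 168, and copy 808 held 14 and 16 against 118 and 83. Copy 598 was nearly silent in WT, with 3 and 6 counts, and held 86 and 92 in G3 Terc-/- libraries.

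Of the copies of ETnERV-int, the MusD name, copy 153 held most counts. It had 4142 and 4295 counts in WT against 286 and 250 in G3 Terc-/- ESCs, and WT stood 14.7-fold higher (log2 fold change -3.88, SE 0.09). Copies 777, 778 and 779 fell to like degrees, with log2 fold changes of -2.57, -2.50 and -2.63. Copies 27 and 28 followed with -2.35 and -2.27, so that all 6 copies with most counts were lower. The counts of copy 779, as an example, were 1283 and 1259 in WT against 188 and 193 in G3 Terc-/- ESCs.

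ETnERV-int also held 2 copies with at least 100 counts that rose. Copy 121 had 9 and 7 counts in WT against 133 and 114 in G3 Terc-/- ESCs, a log2 fold change of 4.03 (SE 0.29, adjusted p = 8.09e-41 from edgeR). Copy 170 had 8 and 4 counts against 113 and 105, a log2 fold change of 4.26 (SE 0.32, adjusted p = 9.83e-38 from edgeR). Both were picked after their values were seen.

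ETnERV2-int counts were spread more evenly over copies. Copy 1666, with most counts, fell by 0.89 on the log2 scale (96 and 105 counts in WT, 57 and 44 in G3 Terc-/- ESCs, SE 0.21, adjusted p = 0.00214 from edgeR). Copies 1610, 593 and 1720 rose by 1.98, 1.65 and 1.37. Copy 1610 had 10 and 16 counts in WT against 45 and 51 in G3 Terc-/- ESCs. Of ETnERV3-int, copy 125 held most counts, with 35 and 37 in WT against 27 and 28 in G3 Terc-/- ESCs (adjusted p = 0.825 from edgeR), and none of its 3 copies with at least 100 counts passed the cutoffs.

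Of the LTRs named RLTRETN_Mm, copy 862 held most counts and rose. It had 440 and 472 counts in WT against 1009 and 800 in G3 Terc-/- ESCs, a log2 fold change of 1.08 (SE 0.10, adjusted p = 1.42e-24 from edgeR). Copy 569 came second and fell by 0.88 (SE 0.11, adjusted p = 1.71e-12 from edgeR), from 560 and 583 counts to 324 and 257. Copy 345 fell furthest among those with at least 100 counts, from 150 and 159 to 7 and 6.

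Of the ERVB7_1-LTR_MM copies, the 6 with most counts were all lower. Copy 671 had 915 and 1068 counts in WT against 181 and 133 in G3 Terc-/- ESCs, a log2 fold change of -2.56 (SE 0.11, adjusted p = 2.50e-108 from edgeR). Copy 672 fell by 2.76 on the log2 scale, and copy 134 went from 483 and 549 counts to 37 and 23. Copy 163 fell from 197 and 252 counts to 2 and 1, and WT stood 129-fold higher.

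In the other ERVB7 names, the copy with most counts stayed under a fold change of 2 and had an adjusted p over 0.05 from edgeR. ERVB7_2-LTR_MM copy 420, with 267 and 342 counts in WT against 341 and 298 in G3 Terc-/- ESCs, held 52.6% of its name's counts. ERVB7_4-LTR_MM copy 109, with 106 and 117 counts against 161 and 125, held 79.2%. ERVB7_2B-LTR_MM copy 578 had 97 and 106 counts against 150 and 83, and ERVB7_3-LTR_MM copy 242 had 17 and 22 against 14 and 19. ERVB7_2B-LTR_MM copy 600, second in its name, fell by 1.29 on the log2 scale (98 and 77 counts against 41 and 26, SE 0.23, adjusted p = 1.10e-05 from edgeR).

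The largest changes in either direction were in copies at or near 0 in 1 genotype. MMETn-int copy 758 had 16 and 24 counts in WT but 0 in both G3 Terc-/- libraries, which is at least 12.4-fold lower when 3 counts are allowed over the group at 0. ERVB7_1-LTR_MM copy 593, with 11 and 21 counts in WT but 0 in both G3 Terc-/- libraries, was at least 9.95-fold lower, and MMETn-int copy 759, with 10 and 13 counts, at least 7.15-fold. ETnERV-int copy 181 fell from 199 and 253 counts to 2 and 1, a log2 fold change of -7.02 (SE 0.34).

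In the other direction, RLTRETN_Mm copy 797 had 0 counts in both WT libraries and 7 and 13 in G3 Terc-/- libraries, at least 7.15-fold higher on the same floor. ETnERV-int copy 122 had 0 counts in both WT libraries against 13 and 7, and copy 234 had 0 against 8 and 10, at least 7.15-fold and 6.43-fold higher. MMETn-int copy 904 had 0 against 7 and 8, and MMETn-int copy 597 had 0 against 6 and 7, at least 5.36-fold and 4.65-fold higher. These copies were chosen for their size of change among those with an adjusted p under 0.05 from edgeR, and most passed the minimum of 5 counts through 1 genotype only. The 5 higher ones held at most 20 counts each.

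Much of the fall in summed level came from few copies, but the counts themselves were also concentrated. The 5 copies with most counts held 38.0% of the members' counts. Over all 7996 copies, tested or not, the mean CPM of the lower ones dropped by 14850 in sum. That of the higher ones rose by 2489, a net change of -12361 CPM. MMETn-int copy 185 gave 19.3% of the losses, the 3 copies with the largest losses 43.7% and the 10 largest 68.7%. These copies were picked by their loss in the same libraries. MMETn-int copy 260 gave the largest gain, of 295 CPM. By name, MMETn-int gave 59.3% of the net change, ETnERV-int 31.7% and ERVB7_1-LTR_MM 9.69%.

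ETnERV-int counts were spread more evenly over copies in G3 Terc-/- than in WT ESCs, but not over more copies. Copies with any count numbered 187 and 172 in WT against 158 and 167 in G3 Terc-/- ESCs. Copy 153 held 41.2% and 40.9% of the name's counts in WT against 13.6% and 13.3% in G3 Terc-/- ESCs. The effective number of copies (the inverse of the summed squared shares of the copies) was 4.74 and 4.79 in WT against 17.7 and 17.8 in G3 Terc-/- ESCs. In ERVB7_1-LTR_MM it went from 5.89 and 5.59 to 10.3 and 12.3, and in MMETn-int from 9.20 and 9.42 to 13.1 and 12.9. RLTRETN_Mm went the other way, from 12.4 and 12.1 to 6.65 and 7.18, and its copy with most counts changed from copy 569, with 19.9% and 20.1% in WT, to copy 862, with 36.1% and 34.5% in G3 Terc-/- libraries. In these 4 names the 2 genotypes did not overlap in the effective number, nor did they in the other members apart from ERVB7_3-LTR_MM. The share of all repeat names without overlap was not computed, so the lack of overlap sets no member apart.

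**Figure D4:**
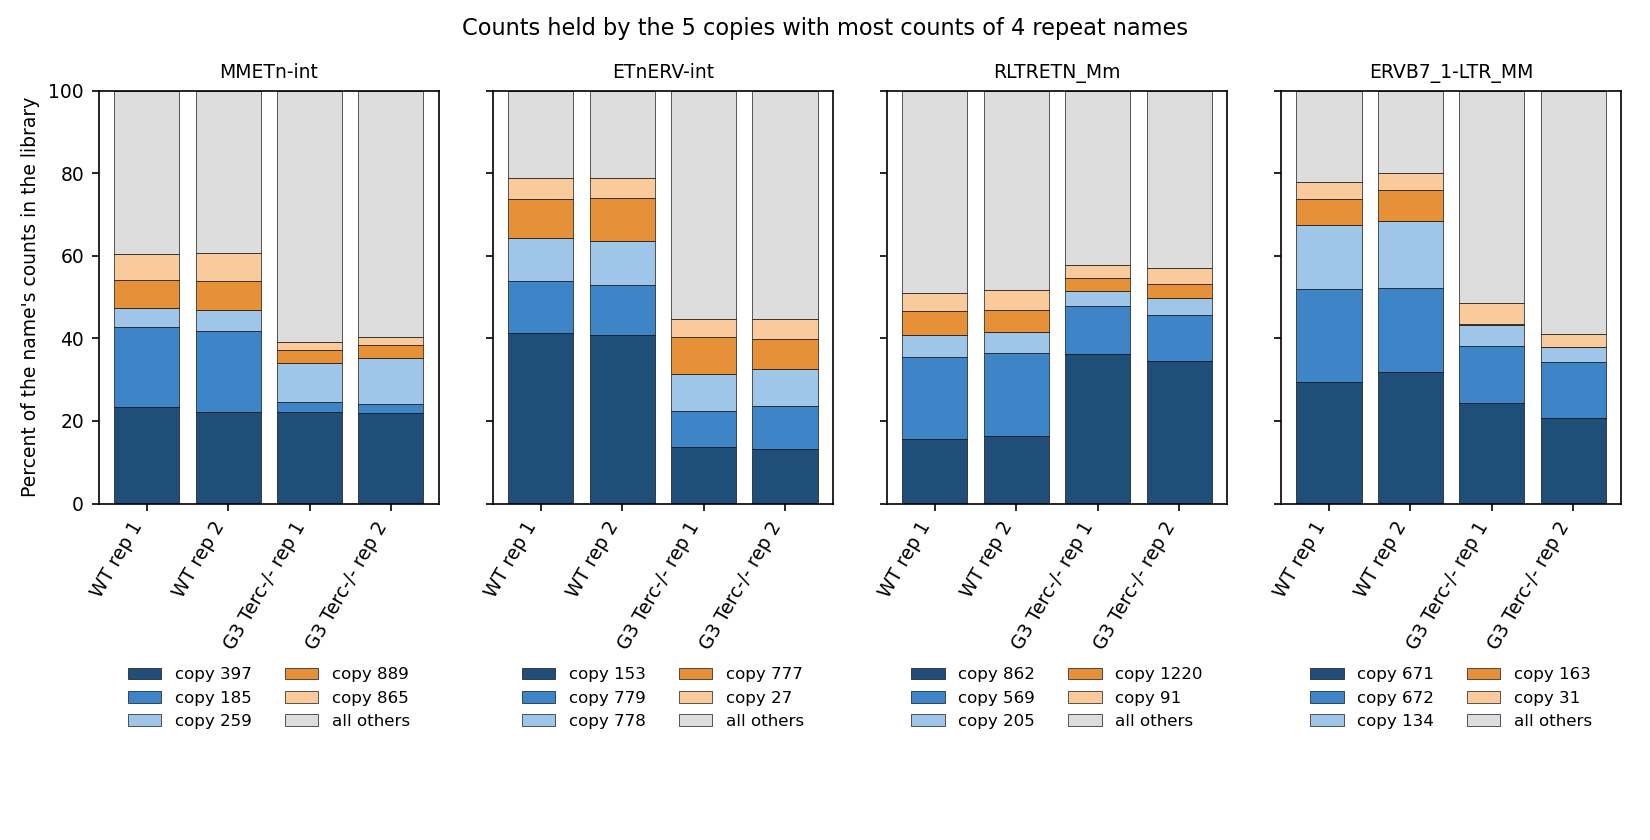
Percent of a repeat name's counts held by each of its 5 copies with most counts over the 4 libraries, and by all other copies, in each library, for MMETn-int, ETnERV-int, RLTRETN_Mm and ERVB7_1-LTR_MM. ETnERV-int copy 153 goes from 41.2% and 40.9% in WT to 13.6% and 13.3% in G3 Terc-/- libraries, and RLTRETN_Mm copy 862 holds 36.1% and 34.5% in G3 Terc-/- libraries.

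Copies of a name with neighbouring running numbers tended to change alike. Among the 330 members with at least 20 counts, 97 pairs had consecutive numbers, and the log2 fold changes of the first and the second correlated with Pearson's r of 0.765 and Spearman's rho of 0.772 across these pairs. Their median absolute difference was 0.42, against 1.75 over the 13015 other pairs of copies within a name, and 82.5% of them had the same sign, against 50.5%. Copies 777, 778 and 779 of ETnERV-int, with log2 fold changes of -2.57, -2.50 and -2.63, are such a run. Copies share libraries and depth and are no independent replicates, and no source used here says what the running number stands for, so that fragments of 1 element cannot be told from separate elements.

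**Figure D5:**
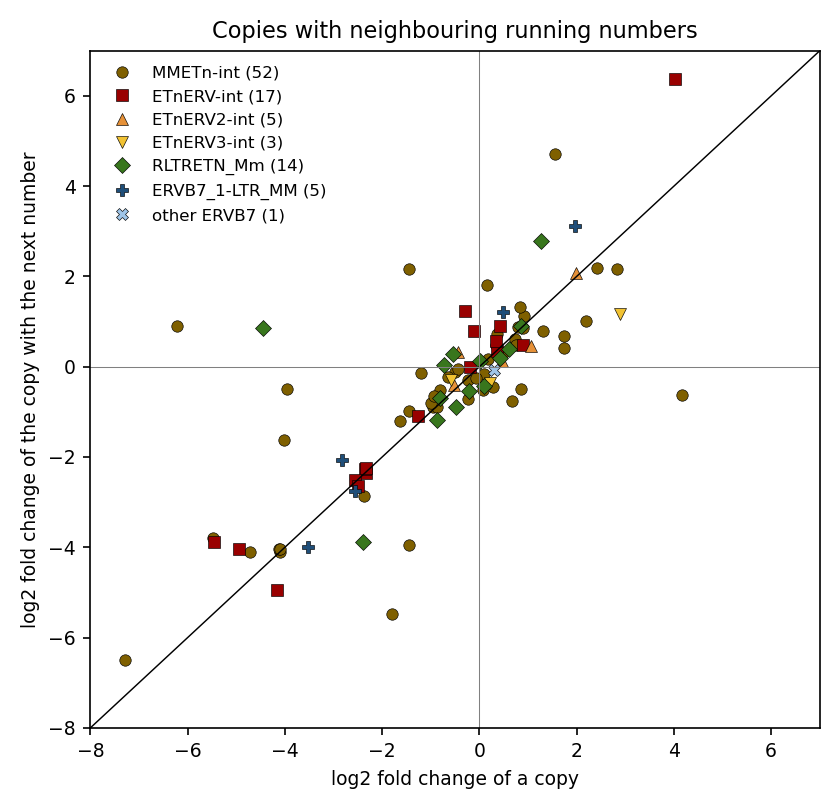
The log2 fold change (G3 Terc-/- over WT) of the copy with the next running number, on the vertical axis, against that of a copy, on the horizontal axis, for the 97 pairs with consecutive numbers within a repeat name, marked by name, with a line of equal change. Points gather along the line (Pearson's r of 0.765, rho of 0.772).

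Some copies of different names had nearly the same counts. Among members with at least 100 counts, 4 pairs differed by at most 2 counts in each library. ETnERV-int copy 181 (199, 253, 2 and 1 counts) and ERVB7_1-LTR_MM copy 163 (197, 252, 2 and 1) were one such pair. MMETn-int copy 896 and RLTRETN_Mm copy 1221 were another, with 67, 55, 34 and 35 against 66, 55, 36 and 34 counts. MMETn-int copy 42 with RLTRETN_Mm copy 90, and MMETn-int copies 515 and 517, made up the rest. Whether the same reads were counted in both was not tested.

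Genes that act on these elements were read from the gene counts. Of 31 genes of TRIM28-SETDB1 silencing, heterochromatin and DNA methylation, 2 were higher and 15 lower in G3 Terc-/- ESCs with an adjusted p under 0.05 (edgeR), where 21.7% of all 14896 genes tested were higher and 21.8% lower. The median log2 fold change of the list was -0.15, against 0.0062 over all genes. Dnmt3b, a de novo DNA methyltransferase, fell from 11230 and 11596 counts to 5129 and 4405, a log2 fold change of -1.13 (SE 0.05, adjusted p = 1.59e-22 from edgeR). Atrx, a chromatin remodeller that deposits histone H3.3 with DAXX, fell by 0.72.

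Cbx3, an HP1 protein that binds methylated H3K9, fell by 1.24, and Smarcad1, a remodeller that acts with TRIM28, by 0.96. Both lie on chromosome 6, where the other tested genes within 5 Mb had a median log2 fold change of -0.87 around Cbx3 (below 0 at any size in 62 of 66 genes) and of -1.50 around Smarcad1 (below 0 in 10 of 10). Around Dnmt3b, on chromosome 2, that median was 0.04 over 135 genes. Trim28 and Setdb1, added after their values were seen, had log2 fold changes of 0.41 (SE 0.05, adjusted p = 9.46e-10 from edgeR) and -0.03 (adjusted p = 0.711 from edgeR).

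Of 15 KRAB zinc finger genes linked to ETn or related ERVs, 13 were tested, 9 of these were higher and 0 lower with an adjusted p under 0.05 from edgeR, against 21.7% of all genes higher. At an unadjusted P under 0.05 no member of the list was lower either. Gm13154, now Zfp985, rose most, from 827 and 889 counts to 2626 and 2378, a log2 fold change of 1.67 (SE 0.07, adjusted p = 7.23e-24 from edgeR). Zfp600 rose by 1.02, Zfp819 by 0.81 and Gm13051, now Zfp987, by 0.67 on the log2 scale. Gm13154, Zfp600 and Gm13051 lie in a cluster of near-identical genes on chromosome 4, so that reads may be split or shared between them and the values are uncertain. Gm13152 and Gm13157, also among the 9 higher genes, lie in the same stretch of chromosome 4. The 9 higher genes therefore need not be 9 separate changes.

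Of 9 transcription factors of pluripotent cells or of LTR promoters, 6 were higher and 1 lower by the same test, against 21.7% and 21.8% of all genes. The 6 higher ones also stand in the list of pluripotency genes above. Nanog rose from 8963 and 9039 counts to 19711 and 16426 (log2 fold change 1.13, SE 0.05, adjusted p = 4.74e-23 from edgeR). It lies on chromosome 6 as well, where the 101 other genes within 5 Mb had a median of 0.54. Sox2 rose by 0.44, Pou5f1 by 0.38 and Klf4 by 0.38. Of 10 genes tested that restrict the copying of retroelements, 4 were higher and 2 lower, the latter near the share of 21.8% over all genes. Zc3hav1, which encodes the zinc finger antiviral protein, rose by 1.43 (SE 0.07, adjusted p = 7.26e-21 from edgeR), whereas Drosha, a microRNA processing enzyme that also cleaves retroelement RNA, fell by 0.22. Dgcr8, its partner, rose by 0.18, and Mov10, an RNA helicase, by 0.15. The gene counts stand beside those of the elements as measured levels, and their part in the change of the elements was not tested.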

How the data were processed

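The TE and the gene count table of 4 RNA-seq libraries (2 WT, 2 G3 Terc-/-) were used. The authors deposited raw counts per TE copy and per gene, neither of them normalized. Trim Galore, STAR and featureCounts, with build mm10, are named in the submitters' processing notes, and versions, strand setting, repeat annotation and the treatment of reads with several places are not given in the sources used here. Without strand, reads from a gene and an element on the other strand cannot be told apart.

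Counts were summed by repeat name with and without the copy with most counts. Names and genes passing filterByExpr (917 of 1072 and 14896 of 24116) and copies with at least 5 counts (176114) were fitted with edgeR 4.0.16 (TMM, quasi-likelihood test) in R 4.3.3, on all rows of each table. SE is the log2 fold change divided by the root of F. Differences from MMETn-int were fitted with limma 3.58.1 (trend) after a log2 CPM transform, prior count 2. Adjusted p-values are Benjamini-Hochberg over the whole table. TE totals were 1805047 to 2104586 counts per library, and floors for a count of 0 cover counting error only. The limma intervals rest on a spread between libraries that is pooled over all names.

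Gene names and places came from RefSeq GRCm38.p6, and of the genes listed Gm21082 and Zfp989 had no row. Members, lists and tests were chosen with earlier results of these data known. The text names each repeat name, its copy with most counts and up to 5 further ones, the 5 largest changes in each direction with an adjusted p under 0.05, 3 repeat names for comparison and up to 4 genes of each list. Gm13152 and Gm13157 were added for their place on chromosome 4, after their values were seen. Within a genotype the libraries differed by more than sampling noise (chi-square per gene 2.41 in WT, 3.60 in G3 Terc-/-). The fits were tested on simulated counts. Alternatives were DESeq2 1.42.0, its size factors, scaling by gene counts, other filters, a replicate block and leaving out each library.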

Additional observations from a re-analysis of the deposited data

How the results depend on the processing

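The 3 lower repeat names and the absence of a higher one held under every alternative run, and of 240 recomputed values 6 changed sign, 3 lost and 1 gained a call, and 12 counts or shares moved by more than 1.5 times or more than 1 SD. The member copies higher at a fold change of 2 came to 53 with DESeq2, 53 with at least 20 counts and 39 by adjusted p, and to between 35 and 76 with a library left out, against 92. The lower ones came to 82 with DESeq2, 88 with at least 20 counts and 70 by adjusted p, against 120, and to between 92 and 102 with a library left out. A replicate block on the number gave 77 higher and 105 lower copies. Over all names and genes, the numbers carried little shared deviation between genotypes (correlation -0.047 over names, 0.0616 over genes). The fibroblast genes went with the number, since their sum was higher in replicate 1 of both genotypes. It was 1680 against 1457 CPM in WT and 2296 against 1980 CPM in G3 Terc-/- ESCs. Whether libraries of the same number were handled together was not tested. By adjusted p, the called copies with at least 100 counts ran from 0 to 14 higher and from 0 to 46 lower with a library left out, an alternative chosen after seeing the data.

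ERVB7_2-LTR_MM turned to 0.0190 when scaled by the gene counts and ran from -0.132 to 0.0546 with a library left out. ERVB7_2B-LTR_MM turned to 0.00202 with DESeq2's size factors and to 0.0497 when scaled by the gene counts, and ran from -0.30 to 0.23. ERVB7_3-LTR_MM passed the cutoffs at -0.60 without its copy with most counts, and its difference from MMETn-int to 0.37, with a range of 0.37 to 0.60 when a library was left out. Without the copies with most counts, 4 names were lower. The difference in share was -0.866 percentage points of the TE counts without the copies with most counts. It was -0.110 percentage points of the gene counts, which are a larger base. As a ratio of G3 Terc-/- to WT, the share was 0.498 of the TE counts, 0.519 without those copies and 0.518 per gene count. The cause of the fall in share was not tested. With a library left out, the lone library of its group was assumed to vary like the other group. Depth limits the ERVB7 names other than ERVB7_1-LTR_MM, where few copies had at least 100 counts.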
